A study of Homo sapiens with 6 samples.

Results

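The proteasome is the protease that degrades ubiquitin-tagged proteins. All 42 genes analysed here encode its subunits, activators, inhibitor or assembly factors. They were chosen by name: every gene symbol of the array annotation made of PSMA, PSMB, PSMC, PSMD, PSME, PSMF or PSMG and a number, without PSMB8 and PSMB9. The 42 genes are part of 18132 genes on the array and are read by 102 probe sets, between 1 and 6 per gene, with 12 genes read by 1 probe set. PSMC3IP and PSME3IP1, whose symbols only begin alike, encode other proteins and were left out, as were 2 probe sets whose annotation lists another or a repeated symbol. PSMA6, PSMC5, PSMD7 and PSMD13 are not analysed here.

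Messenger RNA was measured in A375 cells, a line long established from a human melanoma, on Affymetrix arrays. In the knockdown group (3 arrays) a lentivirus delivered a short hairpin RNA against UBE2S, the ubiquitin-conjugating enzyme that lengthens ubiquitin chains on substrates of the anaphase-promoting complex. The control group (3 arrays) was A375 as well, and the labels used here do not say which vector, if any, those cells carried. The replicates are labelled biological, and all come from 1 cell line, so the p-values speak of the spread between cultures of that line.

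In the complete proteasome, a barrel-shaped core holds the protease sites on its inner beta rings, and outer alpha rings gate its entrance. A regulatory cap docks on the alpha ring: its base contains a ring of ATPases that unfolds substrates, and its lid removes the ubiquitin chain. Dedicated chaperones build core and cap, and alternative activators can replace the cap. When proteasome activity falls short, the transcription factor NFE2L1 is known to raise transcription of the subunit genes together.

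Each deposited value is a log2 expression value from which the median of the 6 arrays had been subtracted, probe set by probe set. A value of 0 is thus the middle of the 6 arrays, levels of different genes cannot be compared, and every change below is knockdown minus control on the log2 scale. The value of a gene is the mean of its probe sets. The rounding of the values also places each probe set in a coarse class of original signal: high (8 to 16 on the log2 scale), middle (4 to 8) or low (2 to 4). A gene was counted as higher or lower when the adjusted p of limma over all 18132 genes was under 0.05. UBE2S itself read -1.13, -1.05 and -1.01 in knockdown replicates 1 to 3 and 1.06, 1.01 and 1.01 in control replicates 1 to 3. Its difference of -2.09 (SE 0.043, adjusted p = 9.23e-08) left 23.5% of the control signal. Array values of a gene are given below in the same order, replicates 1 to 3.

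Transcripts of the proteasome did not move as 1 block. Of the 42 genes, 9 rose, 12 fell and 21 did not pass the test, and the median change was -0.0032 against -0.0038 over all genes. In the background of all genes, 21.4% rose and 18.6% fell, 40.1% in either direction, beside 50% of the proteasome genes, a difference in shares that was not tested. The largest rise was 0.30 and the largest fall was -0.59, with 0 genes changed at least 2-fold by their mean over probe sets. The median absolute change was 0.12 for proteasome genes and 0.11 for all genes. Between the groups 32 of the 42 genes did not overlap, 13 of them higher and 19 lower in knockdown arrays. Of all genes 50.0% did not overlap, 26.2% higher and 23.9% lower. Of the 102 probe sets 19 rose and 25 fell, where 19.5% of all probe sets rose and 17.4% fell, 36.9% in either direction. None of these comparisons takes signal class into account, and 76.5% of the proteasome probe sets were of the high class, against 25.7% of all. Within that class 33 of 78 proteasome probe sets were called, against 7174 of 12648 of all. There, 58 of the 78 did not overlap, against 9277 of the 12648.

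**Figure D1:**
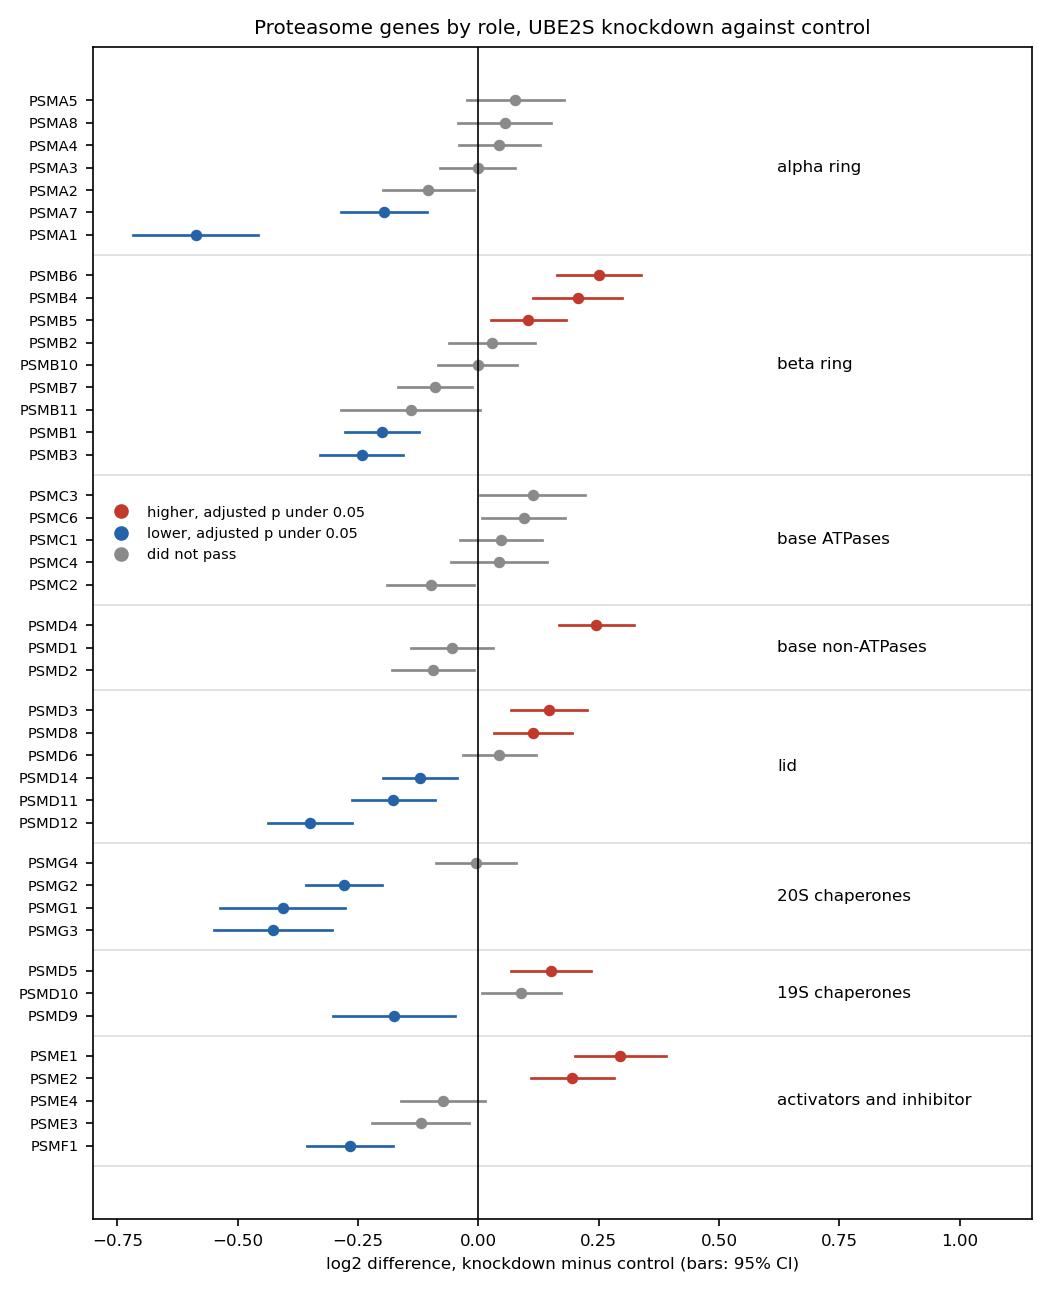
Log2 difference between knockdown and control (x axis) for 42 proteasome genes (y axis), grouped by role. Points are gene means over probe sets, bars are 95% confidence intervals from limma, with 3 arrays per group, and colour marks genes that passed the test. PSMA1, PSMG3 and PSMG1 lie furthest to the left, and PSME1, PSMB6 and PSMD4 furthest to the right.

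These directions hold relative to the array-wide level, since the arrays carry reference transcripts that differed between the groups. Hybridization spike-ins, foreign transcripts added before hybridization, were 0.168 higher in knockdown arrays, and poly-A spike-ins, added to the RNA, were 0.0978 higher, both without overlap. With arrays centred on the poly-A spike-ins 3 proteasome genes rose and 20 fell, where 13.7% of all genes rose and 34.7% fell. With arrays centred on the hybridization spike-ins 0 rose and 24 fell in limma, and at an unadjusted p under 0.05 1 rose and 27 fell. Of all genes 9.73% rose and 50.7% fell with that centring at the adjusted threshold. Their share at the unadjusted threshold was not counted. The median of all genes then moved from -0.0038 to -0.171, and that of the proteasome genes from -0.0032 to -0.171. The 12 falls were called under all 3 scalings. The 3 rises called with poly-A spike-in centring were those of PSME1, PSMB6 and PSMD4. Either spike-in centring lowers the difference of every gene alike, which enlarges falls and shrinks rises. That the falls stayed called is thus no test of them. Among the array controls for RNA quality, ACTB gave a 3' minus 5' value that exceeded the control arrays by 0.191, with separate groups, and GAPDH one that exceeded them by 0.0226, with overlapping groups. The part of either in the changes was not tested.

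**Figure D2:**
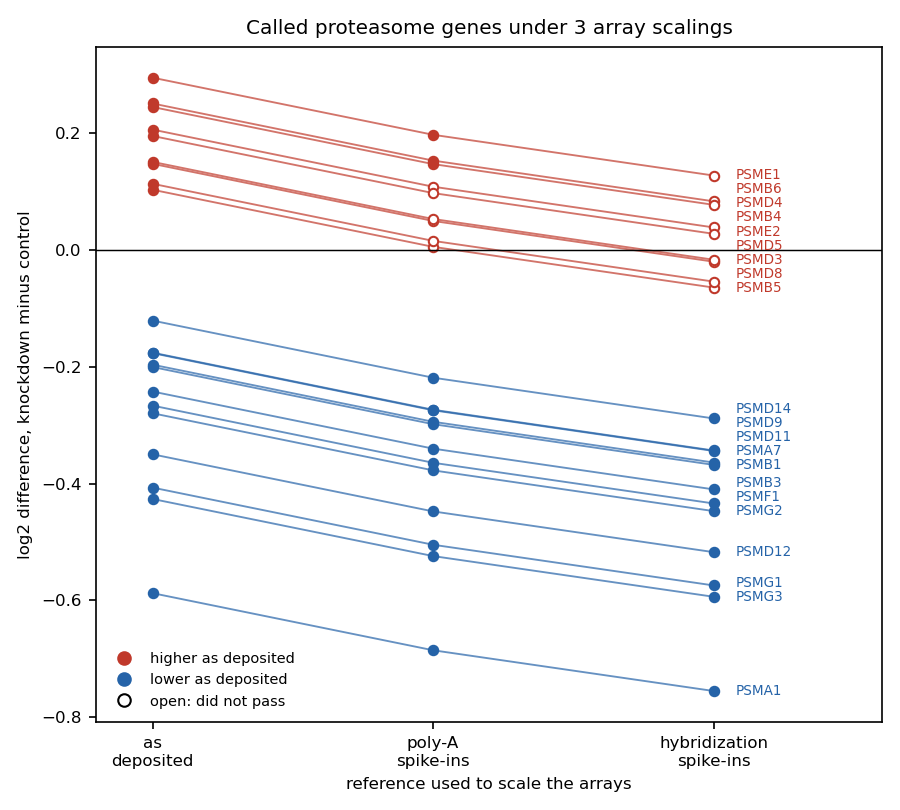
Log2 difference (y axis) of the 21 called proteasome genes with the deposited scaling, with arrays centred on 24 poly-A spike-in probe sets and with arrays centred on 18 hybridization spike-in probe sets (x axis). Each line is a gene, and open points did not pass the test. All 12 falls stay filled, while the rise of PSME1 shrinks from 0.30 to 0.13 and that of PSMB5 turns to -0.064. Both spike-in scalings lower every gene alike, so they are no test of the falls.

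The chaperones that assemble the core had the lowest median change of the roles. PSMG1 and PSMG2 form a pair that starts the alpha ring, and PSMG3 and PSMG4 form a second pair that guides its order. Of the 4, PSMG1, PSMG2 and PSMG3 fell, with a median of -0.34 for the role, where 18.6% of all genes fell. PSMG3 read -0.33, -0.26 and -0.15 in knockdown arrays and 0.23, 0.17 and 0.15 in control arrays. That difference of -0.43 (SE 0.053, adjusted p = 0.000341) left 74.4% of the control signal, with each knockdown array below each control array. PSMG1 read -0.24, -0.13 and -0.30 against 0.14, 0.27 and 0.13, a difference of -0.41 (SE 0.056, adjusted p = 0.000627). PSMG2 had the least spread of the 3, with -0.17, -0.15 and -0.12 against 0.13, 0.12 and 0.15, and it fell by 0.28 (SE 0.034, adjusted p = 0.000315). Each of these 3 genes rests on 1 probe set.

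PSMG4, the partner of PSMG3, stood at -0.0046 (SE 0.036, 95% confidence interval -0.087 to 0.078), and its knockdown and control arrays overlapped. Its 6 probe sets ranged from -0.15 to 0.18, and 1 of them, at -0.15, was called lower. POMP, the chaperone that matures the beta ring and that carries no PSM name, stood at -0.023 (SE 0.045, adjusted p = 0.734). So among the assembly factors of the core the falls covered 3 genes and left PSMG4 and POMP without a call.

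Promoter windows were available for 36 of the 42 genes, from RefSeq with build GRCh38.p14, each with 250 bases before and 50 bases after an annotated start. PSMA7, PSMB1, PSMB6, PSMB7, PSMD4 and PSMG3 had no entry. The windows of PSMG1 (chr21:39183402-39183701, minus strand) and PSMG2 (chr18:12658488-12658787, plus strand) are shown because both genes fell without overlap between the groups. Capitals mark matches to 5 motifs searched on both strands: the core of the antioxidant response element TGACNNNGC, which NFE2L1 and NFE2L2 are known to bind, the CCAAT box CCAAT, the E-box CACGTG, the interferon-stimulated response element and the gamma-activated site TTCNNNGAA.
PSMG1: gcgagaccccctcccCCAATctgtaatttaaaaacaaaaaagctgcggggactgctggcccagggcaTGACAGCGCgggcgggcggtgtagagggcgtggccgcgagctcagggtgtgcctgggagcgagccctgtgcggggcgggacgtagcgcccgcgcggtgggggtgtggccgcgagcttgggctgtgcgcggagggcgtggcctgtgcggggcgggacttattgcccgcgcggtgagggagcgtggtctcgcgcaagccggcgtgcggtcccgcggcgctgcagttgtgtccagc
PSMG2: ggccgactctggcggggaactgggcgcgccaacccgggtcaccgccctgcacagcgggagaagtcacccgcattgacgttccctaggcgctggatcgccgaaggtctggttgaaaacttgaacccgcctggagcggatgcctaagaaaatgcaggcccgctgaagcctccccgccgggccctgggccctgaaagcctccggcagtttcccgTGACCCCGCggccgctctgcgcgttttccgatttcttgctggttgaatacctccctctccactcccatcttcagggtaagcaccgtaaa
PSMG1 holds a CCAAT box at bases 16 to 20 and an antioxidant element core at bases 68 to 76 of the window, and PSMG2 holds 1 such core at bases 212 to 220. No marked matches overlap one another in these windows.

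Over all members the antioxidant element core was present in 12 of 36 windows (33.3%), against 13.3% of all 35116 windows. It was found in 4 of 7 genes that rose and in 5 of 9 that fell. The CCAAT box was in 16 members (44.4%, all windows 34.6%), the E-box in 3 (8.3%, all windows 7.26%) and the gamma-activated site in 5 (13.9%, all windows 7.66%). These are matches of letters and do not show binding.

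Activators of the core split into a pair that rose and a pair without a gene-level call. PSME1 and PSME2 encode the alpha and beta subunits of the interferon-inducible activator known for its part in antigen processing, and both rose. PSME1 read 0.11, 0.12 and 0.14 in knockdown arrays and -0.11, -0.20 and -0.20 in control arrays. It had the largest rise of all proteasome genes (0.30, SE 0.041, adjusted p = 0.000601), to 123% of the control signal, and its 3 probe sets gave 0.34, 0.29 and 0.26, each of them called. PSME2 read 0.064, 0.12 and 0.10 against -0.10, -0.064 and -0.14, a rise of 0.20 (SE 0.037, adjusted p = 0.00348). Every knockdown array of either gene was above every control array. With hybridization spike-in centring the 2 differences were 0.13 and 0.028, and neither passed the test. The value of PSME2 rests on 1 probe set, named _s_at, a type whose probes can match several transcripts.

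The windows of PSME1 (chr14:24135944-24136243, plus strand) and PSME2 (chr14:24146561-24146860, minus strand) are shown because the genes lie near each other on chromosome 14 and rose together.
PSME1: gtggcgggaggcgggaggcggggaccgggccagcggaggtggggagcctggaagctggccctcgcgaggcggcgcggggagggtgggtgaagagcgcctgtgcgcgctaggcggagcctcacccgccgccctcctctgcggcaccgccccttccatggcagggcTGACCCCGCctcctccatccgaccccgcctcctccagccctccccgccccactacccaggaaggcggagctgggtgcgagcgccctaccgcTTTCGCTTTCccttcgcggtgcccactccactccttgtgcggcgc
PSME2: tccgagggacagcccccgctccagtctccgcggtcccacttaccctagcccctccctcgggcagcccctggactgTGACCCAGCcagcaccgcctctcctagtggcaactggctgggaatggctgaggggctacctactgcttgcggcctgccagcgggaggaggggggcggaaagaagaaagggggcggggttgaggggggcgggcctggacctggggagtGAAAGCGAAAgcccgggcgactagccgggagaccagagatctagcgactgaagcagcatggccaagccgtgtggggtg
Both hold the interferon-stimulated response element, PSME1 at bases 256 to 265, just past the annotated start and on the opposite strand, and PSME2 at bases 223 to 232. Both also hold an antioxidant element core, at bases 165 to 173 and 76 to 84. The interferon element was present in 6 of 36 members (16.7%) and in 3.57% of all windows. Its carriers were PSME1, PSME2 and PSMB4, which rose, and PSMA4, PSMB10 and PSMG4, which did not pass the test.

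PSME3 encodes the nuclear activator of the core and PSME4 the large activator linked to histone breakdown and spermatogenesis. Their gene means fell short of a call, at -0.12 (SE 0.043, adjusted p = 0.0592) and -0.074 (SE 0.038, adjusted p = 0.167), and their probe sets pointed in opposite directions. Of 6 probe sets of PSME4, 2 rose (0.31 and 0.27), 2 fell (-0.58 and -0.44) and 2 did not pass (0.088 and -0.089). The lowest read -0.29, -0.38 and -0.24 in knockdown arrays and 0.24, 0.33 and 0.26 in control arrays. The probe set at 0.27 read 0.13, 0.14 and 0.13 against -0.13, -0.13 and -0.16. Both of these separated the groups without overlap, so that no single value describes PSME4. For PSME3, 1 probe set rose (0.16, adjusted p = 0.0184), 1 fell (-0.40, adjusted p = 0.00598) and 1 did not pass (-0.12).

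PSMF1, an inhibitor of the core, fell. It read -0.16, -0.13 and -0.12 in knockdown arrays and 0.12, 0.18 and 0.090 in control arrays, a difference of -0.27 (SE 0.038, adjusted p = 0.000783). Of its 6 probe sets, 3 fell by 0.38 to 0.48 and 3 did not pass, with values between -0.099 and -0.071. The 2 probe sets of PSMF1 in the high signal class were among those that did not pass, and their mean was -0.093, lower in a fit of that class alone.

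**Figure D3:**
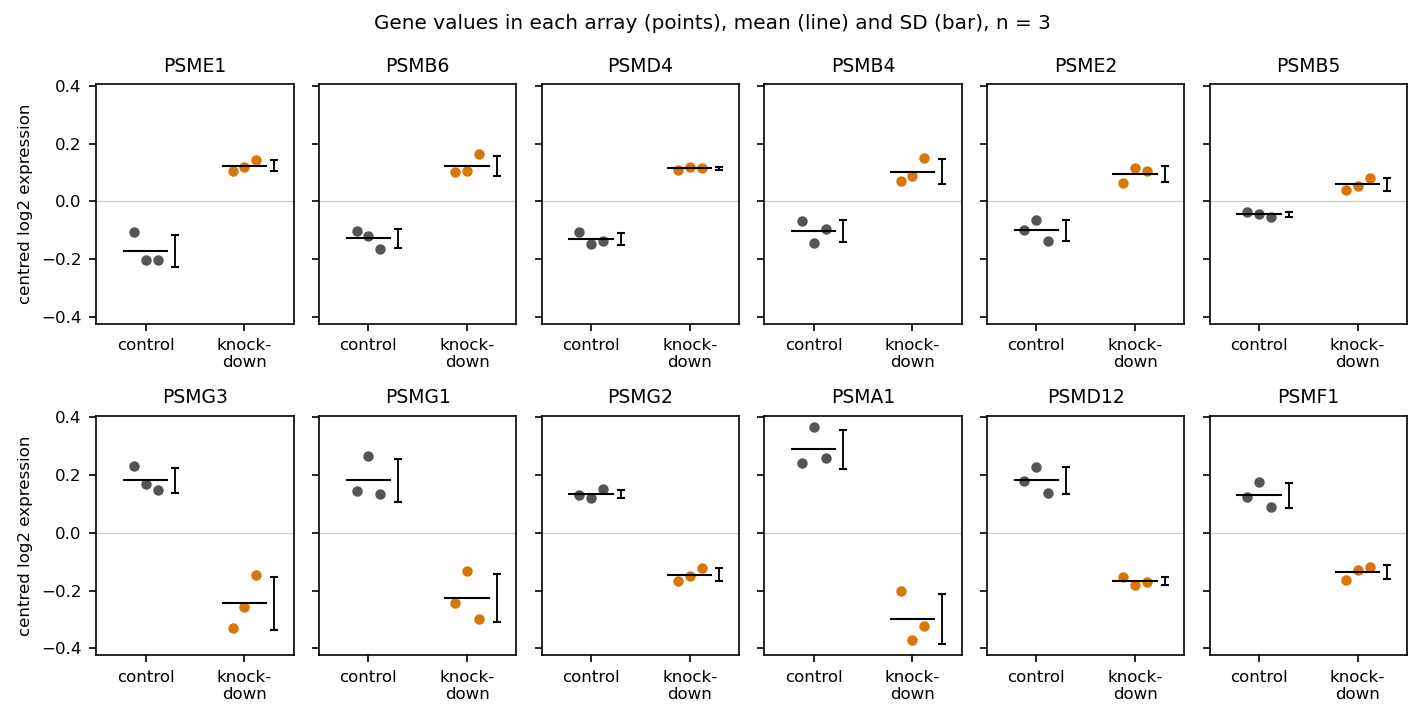
Centred log2 expression (y axis) of 12 proteasome genes in the 3 control and the 3 knockdown arrays (x axis), with points for arrays, lines for group means and bars for the SD. In the upper row, which holds rising genes, all knockdown points lie above all control points, and in the lower row they lie below. PSMD4 has the tightest knockdown arrays, at 0.11, 0.12 and 0.12.

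In the beta ring 3 of 9 measured subunits rose and 2 fell, where 21.4% of all genes rose and 18.6% fell. The protease sites are carried by PSMB6 (caspase-like), PSMB7 (trypsin-like) and PSMB5 (chymotrypsin-like, the main target of bortezomib). PSMB6 read 0.10, 0.10 and 0.16 in knockdown arrays and -0.10, -0.12 and -0.16 in control arrays, and it rose by 0.25 (SE 0.038, adjusted p = 0.000984). That value rests on 1 probe set. PSMB5 read 0.039, 0.055 and 0.082 against -0.037, -0.043 and -0.054. Its rise of 0.10 (SE 0.034, adjusted p = 0.0413) did not overlap but was lost when any 1 of the 6 arrays was left out. With hybridization spike-in centring it turned to -0.064, and 1 of its 5 probe sets was called higher as deposited. PSMB7 read -0.048, -0.032 and -0.048 against 0.045, 0.031 and 0.065. That gene stood at -0.089 (SE 0.033, 95% confidence interval -0.17 to -0.012, adjusted p = 0.0662) and did not pass, although 1 of its 5 probe sets was called lower (-0.20, adjusted p = 0.0186).

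PSMB10, the interferon-inducible subunit that takes the place of PSMB7 in immunoproteasomes, did not pass the test. It read -0.019, -0.0057 and 0.024 in knockdown arrays and 0.032, -0.026 and -0.0013 in control arrays. The difference was -0.0018 (SE 0.036), with an interval of -0.084 to 0.081. The groups overlapped.

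Among the beta subunits without a protease site of their own, PSMB4 rose while PSMB1 and PSMB3 fell. PSMB4 read 0.071, 0.086 and 0.15 against -0.068, -0.14 and -0.097, a rise of 0.21 (SE 0.040, adjusted p = 0.00379) that its 3 probe sets shared (0.20, 0.23 and 0.19). PSMB3, read by 1 probe set, gave -0.15, -0.15 and -0.087 against 0.15, 0.087 and 0.12, a difference of -0.24 (SE 0.037, adjusted p = 0.00111). PSMB1 read -0.11, -0.087 and -0.11 against 0.11, 0.097 and 0.082, and fell by 0.20 (SE 0.033, adjusted p = 0.00173). None of the 3 overlapped between the groups. With hybridization spike-in centring PSMB4 stood at 0.039 and did not pass.

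PSMB2 stood at 0.029 (SE 0.039) as a gene, and its probe sets disagreed: 2 rose (0.13 and 0.15) and 1 fell (-0.19). PSMB11, the thymus-specific subunit, stood at -0.14 (SE 0.062, adjusted p = 0.114) in arrays that overlapped. It was read by 1 probe set of the low signal class.

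In the alpha ring, PSMA1 and PSMA7 fell and the other 5 measured subunits did not pass. PSMA1 had the largest fall of all proteasome genes, with -0.20, -0.37 and -0.32 in knockdown arrays against 0.24, 0.37 and 0.26 in control arrays (-0.59, SE 0.056, adjusted p = 8.05e-05). The value averages 2 probe sets that disagree and that the annotation assigns to different RefSeq transcripts of the gene. One, of the high signal class, read -0.53, -0.64 and -0.69 against 0.53, 0.65 and 0.56, a fall of 1.20 (SE 0.058, adjusted p = 5.09e-06) to 43.4% of control. It was the 1 proteasome probe set of 102 that changed at least 2-fold. The other, of the middle class, read 0.13, -0.10 and 0.044 against -0.048, 0.083 and -0.044, and stood at 0.027 (SE 0.071, adjusted p = 0.809).

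PSMA7, read by 1 probe set, gave -0.13, -0.13 and -0.060 against 0.12, 0.060 and 0.091, and fell by 0.20 (SE 0.038, adjusted p = 0.00393) without overlap. PSMA2 (-0.10, adjusted p = 0.0814), PSMA3 (-0.0019), PSMA4 (0.043) and PSMA5 (0.077) did not pass, and neither did PSMA8 (0.055), the testis form of PSMA7. Of these 5, only the arrays of PSMA2 did not overlap.

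The 5 measured ATPases of the base, which thread substrates into the core, gave 0 calls in limma, where 40.1% of all genes were called. At an unadjusted p under 0.05 there were 3: PSMC3 (0.11) and PSMC6 (0.095) higher and PSMC2 (-0.099) lower, with adjusted p-values of 0.0961, 0.0802 and 0.0803. Of all 18132 genes, 8501 passed that unadjusted threshold. PSMC1 stood at 0.047 (SE 0.037) and PSMC4 at 0.043 (SE 0.043), both with overlap. For PSMC2 the gene mean combined a probe set called lower (-0.34, adjusted p = 0.00314) with values of 0.085 and -0.043 that did not pass. For PSMC6 the probe set of the high class was called higher (0.15, adjusted p = 0.0231), and that of the low class stood at 0.037.

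Of the other subunits of the base, PSMD4 rose. This receptor, which binds ubiquitin chains, read 0.11, 0.12 and 0.12 in knockdown arrays and -0.11, -0.15 and -0.14 in control arrays. Its rise of 0.24 (SE 0.034, adjusted p = 0.00058) rests on 1 probe set of the _x_at kind, which the array design marks as open to cross-hybridization. The scaffold subunits PSMD1 (-0.055, SE 0.037) and PSMD2 (-0.095, SE 0.037, adjusted p = 0.0753) did not pass. Of the 3 probe sets of PSMD2, 1 fell (-0.29, adjusted p = 0.00434) and the others stood at 0.022 and -0.021. ADRM1, a second ubiquitin receptor of the base without a PSM name, fell by 0.14 (SE 0.039, adjusted p = 0.0192). That call was lost with the median of its probe sets, with the replicate block, and without knockdown replicate 1 or 2 or control replicate 1 or 2.

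In the lid 3 of 6 measured subunits fell and 2 rose, where 18.6% of all genes fell and 21.4% rose. PSMD12, a scaffold subunit, read -0.15, -0.18 and -0.17 in knockdown arrays and 0.18, 0.23 and 0.14 in control arrays. It fell by 0.35 (SE 0.038, adjusted p = 0.000163), to 78.5% of the control signal. Its 4 probe sets were all below 0, from -0.67 to -0.11, and 3 of them were called. PSMD11, whose level is known to set proteasome assembly in stem cells, fell by 0.18 (SE 0.037, adjusted p = 0.00588). PSMD14, the metalloprotease that cuts the ubiquitin chain off the substrate, read -0.087, -0.062 and -0.058 against 0.053, 0.043 and 0.060, a fall of 0.12 (SE 0.033, adjusted p = 0.0200).

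Neither probe set of PSMD14 was called on its own, with adjusted p-values of 0.0590 and 0.0709 in limma. The gene call was lost without knockdown replicate 1 or 2, without control replicate 1 or 3 and with the replicate number as a block. It was also lost with the probe set of largest variance and at an adjusted p under 0.01. The change of PSMD14 ranged from -0.29 to -0.11 over all alternatives. PSMD3 rose by 0.15 (SE 0.034, adjusted p = 0.00915), PSMD8 by 0.11 (SE 0.035, adjusted p = 0.0344) and PSMD6 stood at 0.043 (SE 0.033). All 6 lid genes were without overlap between the groups, PSMD6 included, where 50.0% of all genes were. PSMD3 turned to -0.020 and PSMD8 to -0.054 with hybridization spike-in centring, and the call of PSMD8 was also lost when any 1 array was left out. None of the 3 probe sets of PSMD8 was called on its own.

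Of the chaperones that assemble the base, PSMD5 rose and PSMD9 fell. PSMD5 read 0.058, 0.031 and 0.097 in knockdown arrays and -0.098, -0.10 and -0.065 in control arrays (0.15, SE 0.036, adjusted p = 0.0108), and turned to -0.017 with hybridization spike-in centring. PSMD9 read -0.046, -0.19 and -0.047 against 0.16, 0.061 and 0.024, a difference of -0.18 (SE 0.055, adjusted p = 0.0347) in which knockdown replicate 2 stood apart. The middle-class probe set of PSMD9, which did not pass, read 0.025, -0.31 and -0.026 in knockdown arrays. The high-class one read -0.12, -0.065 and -0.069 there and was called lower (-0.18, adjusted p = 0.0143 in limma). The gene call was lost without knockdown replicate 2, at -0.13, and without control replicate 1 or 2. It was also lost with the probe set of largest variance and at an adjusted p under 0.01. PSMD10, also known as the oncoprotein gankyrin, stood at 0.089 (SE 0.035, adjusted p = 0.0814).

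Of the 30 proteasome genes with at least 2 probe sets, 21 had all probe sets on 1 side of 0. In 3 genes, PSMB2, PSME3 and PSME4, probe sets were called in both directions. The same counts were not made over all genes. Of the 102 proteasome probe sets, 76.5% were in the high class, against 25.7% of all probe sets. In the high class 18 of 78 rose and 15 fell, 23.1% and 19.2%, where 27.4% and 29.4% of all probe sets of that class did. In the middle class 1 of 21 rose and 10 fell, 4.76% and 47.6%, against 21% and 16.2%. The 10 falling probe sets of the middle class belonged to PSMB2, PSMC2, PSMD12, PSME3, PSME4, PSMF1 and PSMG3.

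**Figure D4:**
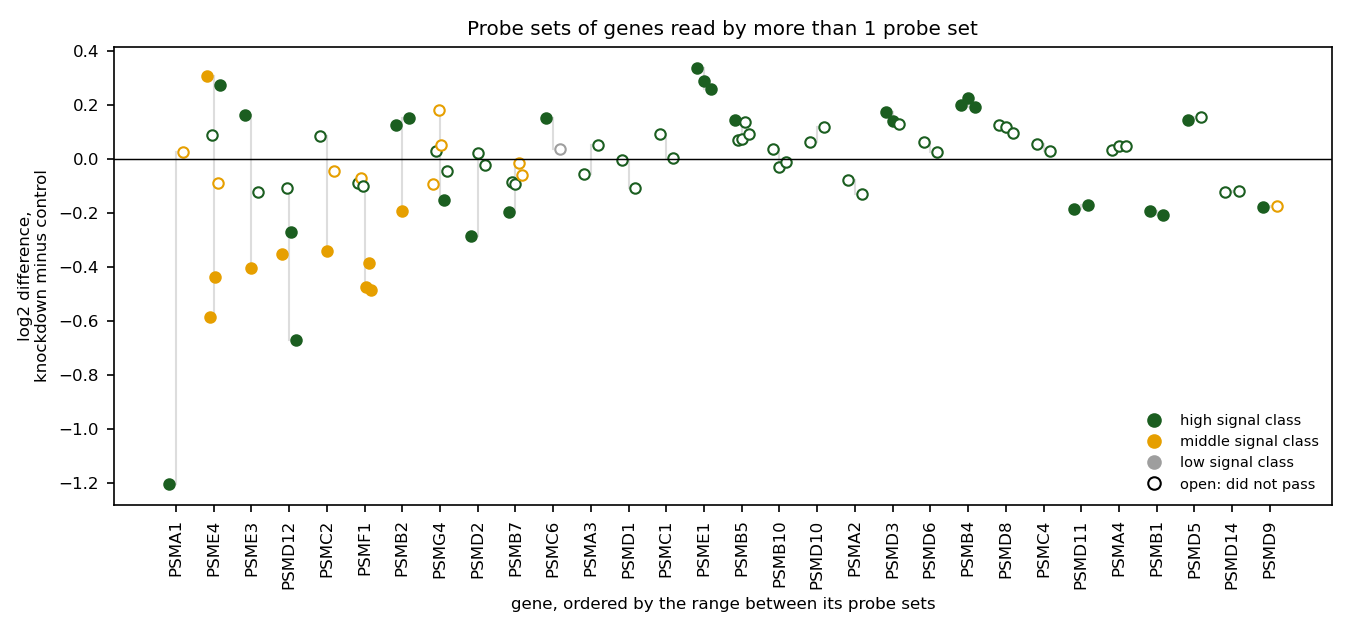
Log2 difference (y axis) of each probe set for the 30 proteasome genes with at least 2 of them (x axis, ordered by the range within the gene). Colour gives the signal class and open points did not pass the test. PSMA1 has the widest range, from -1.20 to 0.027, followed by PSME4, from -0.58 to 0.31.

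When only probe sets of the high class were fitted, 15 of 39 proteasome genes rose and 14 fell, in a fit in which 68.5% of all 6486 genes were called. PSME4 then rose (0.18), as did PSMB2 (0.14) and PSMC2 (0.085), and PSMB7 fell by 0.12. PSME3 stood at 0.021, and PSMA1 at -1.20. With the probe set of largest variance PSMB2 stood at -0.19 and PSMD12 at -0.67. The direction of PSMB2, PSMC2, PSME3 and PSME4, and the size of PSMA1, PSMD12 and PSMF1, thus depend on the probe sets that stand for the gene.

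Genes that work with the proteasome were also mixed. Of 19 measured partners, 4 rose and 5 fell, with a median of -0.026. That is 47.4% called, near the 40.1% of all genes. ZFAND5, a proteasome-binding protein that speeds degradation, had the largest change of the list, with -0.39, -0.37 and -0.36 in knockdown arrays and 0.35, 0.40 and 0.32 in control arrays (-0.73, SE 0.036, adjusted p = 3.3e-06). UCHL5 and USP14, the deubiquitinases bound to the cap, fell by 0.40 (SE 0.046) and 0.31 (SE 0.038), although USP14 stood at 0.028 and did not pass when only its probe sets of the high class were used. PITHD1 rose by 0.41 (SE 0.041), ZFAND2A by 0.37 (SE 0.043) and UBQLN4, a shuttle for ubiquitinated proteins, by 0.31 (SE 0.050).

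NFE2L1 rose, with 0.10, 0.13 and 0.22 in knockdown arrays against -0.14, -0.14 and -0.13 in control arrays (0.29, SE 0.040, adjusted p = 0.000673). NGLY1, the glycanase that processes its protein, rose by 0.20 (SE 0.045), and DDI2, the protease that releases it, fell by 0.14 (SE 0.046). The call of DDI2 was lost with the median of its probe sets, with the replicate block, and without knockdown replicate 1 or 2 or control replicate 1 or 2. NFE2L2 stood at 0.11 (SE 0.037, adjusted p = 0.0505). Of the 7 measured genes of this pathway 2 rose and 1 fell, 42.9% called and so near the 40.1% of all genes. With hybridization spike-in centring NFE2L1 stood at 0.12 and passed, and NGLY1 at 0.028 and did not. UBB, a polyubiquitin precursor, rose by 0.29 (SE 0.036, adjusted p = 0.000327) and stood at 0.13, still called, with hybridization spike-in centring. The other ubiquitin genes are not analysed here.

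The COP9 signalosome and the chaperonin CCT are given for comparison, without a test between them. The signalosome, whose subunits are related to those of the lid, had 3 rises and 2 falls among 10 genes, with a median of 0.024, where 21.4% of all genes rose and 18.6% fell. COPS8 and COPS6 rose by 0.46 and 0.41, and COPS9 and COPS3 fell by 0.37 and 0.32. The remaining rise, that of COPS7A (0.15), became -0.019 when arrays were centred on the hybridization spike-ins, and its call was lost without knockdown or control replicate 3. In the chaperonin, which folds actin and tubulin, 6 of 8 genes fell and 1 rose, beside the same shares of all genes, with a median of -0.19. The values ran from TCP1 at -0.45 to CCT3 at 0.11. CCT3 turned to -0.061 with that centring and lost its call when any 1 array was left out.

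Levels are removed by the centring, so the identity of the cells could be checked only by signal class. Of 6 measured markers of the melanocyte lineage, SOX10 and S100B had a probe set in the high class. CD68 was the only one of 4 blood cell markers there, KRT18 of 4 epithelial ones, and none of 3 endothelial and 4 fibroblast markers was. Of these 15 markers of other cell types 3 rose and 3 fell, beside 40.1% of all genes called. Their part in the proteasome values was not tested. In bulk RNA, fewer cells with a transcript and less transcript per cell cannot be told apart.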

How the data were processed

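Biotin-labelled RNA, extracted with Trizol per the labels' protocols, was read on 6 Affymetrix arrays. The deposited values are log2 expression: the submitters' processing notes name RMA, affy and limma without role or version, and the base of the logarithm was taken from RMA. In the table each probe set has a median of 0 over the arrays (within 4.85e-07), a centring that the sources used here do not describe.

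Of 49293 probe sets other than array controls, 44988 had 1 gene symbol, 1832 several and 2473 none, and the probe sets of a gene were averaged. Groups were compared with limma 3.58.1 (lmFit, eBayes; R 4.3.3), with equal weights, no block and no filter, since centred values hold no level. Tests were two-sided with Benjamini-Hochberg adjustment, and intervals are 95%. The fit was also run on simulated data with independent noise, in which far fewer genes changed than were called here. That run does not bear on the calls. The number of arrays limits the precision. Alternatives covered probe set choice, scaling, weights, variance model, block, threshold, signal class and single arrays.

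Signal classes come from the rounding step of the values (tolerance 0.1 of a step) and are coarse: they do not show detection. Motifs were counted as exact matches. Members and lists were chosen with earlier results of these data known. Named genes were UBE2S, catalytic subunits, PSMB10, activators, PSMF1, the 6 largest called rises and falls, members with opposing probe sets, at least 1 gene per role, up to 3 called genes per direction of each other list, and NFE2L1, NFE2L2, POMP and ADRM1. Other members are given briefly. COPS7A and CCT3 are among the called genes of their lists.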

Additional observations from a re-analysis of the deposited data

How the results depend on the processing

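Of the 21 called genes, 10 kept their call and direction in each of the 17 alternatives that could be fitted for them, all 10 of them falls: PSMA1, PSMA7, PSMB1, PSMB3, PSMD11, PSMD12, PSMF1, PSMG1, PSMG2 and PSMG3. Spike-in centring lowers the difference of every gene, so this count does not show that falls are firmer than rises. PSME1, PSMB6 and PSMD4 lost their call only with hybridization spike-in centring, and the other 8 lost theirs in at least 1 other alternative. With that centring 0 genes rose and 24 fell, 1 probe set rose and 50 fell, and the median was -0.171, where 9.73% of all genes rose and 50.7% fell. PSMB5 (-0.064), PSMD3 (-0.020), PSMD5 (-0.017), PSMD8 (-0.054), PAAF1 (-0.044), COPS7A (-0.019) and CCT3 (-0.061) then changed sign, and none of them passed in the new direction. With poly-A spike-in centring 3 genes rose and 20 fell, 7 probe sets rose and 44 fell, and the median was -0.10, where 13.7% of all genes rose and 34.7% fell. These shifts follow from the spike-in differences themselves. With the high signal class only, in a fit with fewer genes, 15 genes and 29 probe sets rose and the median was 0.043. In that fit 34.2% of all genes rose. USP14 changed sign there (0.028) without passing. With the largest-variance probe set the median was -0.038, and CCT8 changed sign (0.0083) without passing. The cause was not tested. An adjusted p under 0.01 left 8 rising probe sets of 19, and the share of all genes that rose went from 21.4% to 16.2%. Leaving out each array in turn gave 7 rising genes each time, 10 to 13 falling genes, 11 to 16 rising probe sets, of which 11 without knockdown replicate 2 and 12 without control replicate 2, 19 to 24 falling ones, and medians from -0.018 to -0.0021. Of all genes 19% to 19.7% rose and 15.8% to 17.1% fell in these fits with an array left out. With the replicate number as a block 7 genes rose and 11 fell, where 19.9% of all genes rose and 16.9% fell. There 12 probe sets rose and 22 fell. Deviations of same-numbered samples correlated at -0.0191, -0.0143 and -0.0615, and no knockdown sample correlated best with the control of its own number. The values thus showed no pairing by number, but they cannot tell whether same-numbered cultures were handled together. Other counts stayed within 1.5 times their values. Background correction and renormalization were not run, since the table holds no scanner values. Signal over background is unknown.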
